A study of Homo sapiens with 6 samples.

Results

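The 56 genes described here encode RNA-binding proteins of the HNRNP and RBM families. They are the rows of the deposited table whose platform symbol starts with HNRNP (21 genes) or is RBM followed by a number (35 genes), without pseudogenes and antisense transcripts, out of 14779 genes with a named row. Each of the 56 had a single row on the array. RBMX, RBMX2, RBM3, RBM4, HNRNPD, HNRNPH2 and RBMS1 to RBMS3 were not analysed here.

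RNA came from the human neuroblastoma line BE(2)-C, which is established in culture and is 1 clone. Cells had been kept for 2 days in 10 µM NCT-503 or in its vehicle, DMSO, with 3 samples in each group, lettered a, b and c in the labels; values by array are given in that order. NCT-503 inhibits PHGDH, the first enzyme of serine synthesis, and the comparison asked which transcripts differ between drug and vehicle. Each sample was hybridised to its own single-colour Affymetrix whole-transcript array, and precision is limited by there being 6 arrays. The labels call the samples independent without naming separate cultures, and the spread that p-values measure may be technical. Values are the deposited log2 expression values, a change is the log2 value in NCT-503 minus that in DMSO, errors are SD over 3 arrays for levels and limma's standard error (SE) for changes, and a gene was called at a Benjamini-Hochberg adjusted p under 0.05 over all 14779 genes.

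Heterogeneous nuclear ribonucleoproteins (hnRNPs) coat nascent transcripts as these leave RNA polymerase and guide splice-site choice, polyadenylation, export and stability, often by keeping splicing factors away from a site. RBM genes are a looser family named for the RNA recognition motif, and their products range from parts of the spliceosome to cofactors of RNA methylation, nuclear RNA decay and ribosome assembly. Many proteins of both families regulate their own transcripts by alternative splicing, which a gene-level array value does not resolve. Less RNA per cell and fewer cells of a type cannot be told apart in such bulk samples.

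Of the 56 genes, 22 fell, 8 rose and 26 did not pass the test. Over all named genes, 33.5% were called, 17.1% lower and 16.4% higher, against 39.3% lower and 14.3% higher of the members. All treated arrays lay below all control arrays in 27 members and above them in 13, against 22.4% and 25.4% of all named genes. Each of the 22 members called lower and the 8 called higher was among them, so separation is no added support for a call. Calls are more frequent among bright rows, and 48 of the 56 members lay above the median level of all named genes. Among the 7389 genes above that median, tested alone, 32.2% were lower and 29.1% higher, against 45.8% and 20.8% of the 48 members. The median change was -0.12 for the members and 0.06 for all named genes. With arrays centred on the median it was -0.08 and 0.11, and on the 75th percentile -0.05 and 0.13. Among the 7389 genes above the median level it was -0.15 for the 48 members and -0.006 for all. By a fold of at least 1.5, 10 members fell and 5 rose, against 8.86% and 4.96% of all named genes. No set test was made, so the counts describe these genes beside that background.

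**Figure D1:**
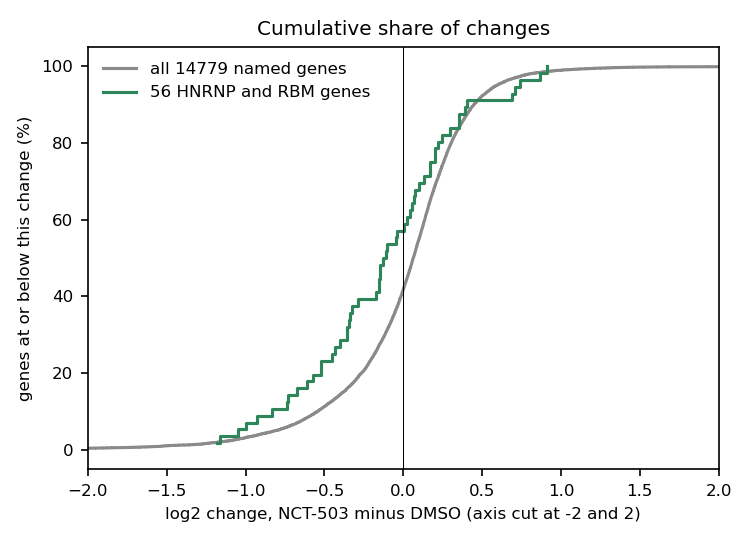
Cumulative share of genes (y axis, %) at or below each log2 change, NCT-503 minus DMSO (x axis, from -2 to 2), for the 56 members and for all 14779 named genes. The members' curve lies to the left of the other over most of the range below 0, with 57.1% of members and 41.8% of all named genes below 0. The curves are not matched for level.

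Across the series, the median value of an array over all rows was 4.30 to 4.33, and the upper quartile was 6.16 to 6.19 in DMSO and 6.03 to 6.08 in NCT-503. Centring each array on its 75th percentile moved the median change of all genes by 0.07 and the share of higher calls among all calls from 48.8% to 60.4%; among the members it gave 20 lower and 10 higher. Of the adrenergic neuroblastoma markers, 7 of 10 had a row, with mean levels from 5.97 for TH to 10.22 for DBH. These markers went both ways: PHOX2A (0.75), GATA3 (0.37) and DBH (0.37) rose, CHGA (-1.23), HAND2 (-0.30) and ISL1 (-0.29) fell, and TH (-0.16) did not pass. The calls of HAND2, ISL1 and DBH were each lost without some single arrays (adjusted p up to 0.128, 0.0742 and 0.0605). The summed level of the 7 was 11.999 to 12.084 in DMSO and 11.885 to 12.003 in NCT-503, on the log2 scale. The glial markers SOX10, S100B and GFAP had mean levels of 4.44 to 4.55 and the leukocyte marker CD14 3.38. Of the fibroblast markers, 2 of 7 had a row: LUM at 7.10 did not pass (-0.24, adjusted p = 0.0522) and DCN at 4.58 fell by 0.47 (adjusted p = 0.00687). The summed level of these fibroblast markers was 7.44 to 7.54 in DMSO and 7.13 to 7.28 in NCT-503, on the log2 scale, and the part of any of these markers in the members' changes was not tested.

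The sequences below are the bases before the annotated start of the 3 HNRNP genes with the largest falls, as RefSeq gives them for GRCh38.p14. They are shown because these genes fell most among the classical hnRNPs and because their proximal promoters differ in the motifs they hold. Each runs 5′ to 3′ on the strand of the gene and ends at the base before the start. Capitals mark an E-box (CACGTG, the site bound by MYC and related factors), a CCAAT box (CCAAT, or ATTGG on the other strand), the amino acid response motif (TGATGNAA) or a cyclic AMP response element (TGACGTCA).
HNRNPM, chr19:8444825-8444974, + strand: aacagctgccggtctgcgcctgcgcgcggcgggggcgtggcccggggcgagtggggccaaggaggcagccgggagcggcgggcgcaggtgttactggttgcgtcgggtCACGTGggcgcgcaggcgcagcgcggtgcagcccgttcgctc
HNRNPAB, chr5:178204383-178204532, + strand: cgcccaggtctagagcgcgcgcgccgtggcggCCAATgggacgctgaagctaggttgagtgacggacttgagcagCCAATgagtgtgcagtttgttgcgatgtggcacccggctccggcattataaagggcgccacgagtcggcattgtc
HNRNPC, chr14:21269443-21269592, - strand: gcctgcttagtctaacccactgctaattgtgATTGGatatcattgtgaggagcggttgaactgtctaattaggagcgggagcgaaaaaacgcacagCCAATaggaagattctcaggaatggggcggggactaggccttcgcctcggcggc
Only the HNRNPM stretch holds the E-box, and HNRNPAB and HNRNPC hold CCAAT boxes in its place, 2 each.

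Promoter windows of 300 bases, from 250 before to 50 after a start, were given for 51 of the 56 genes (67 windows). On either strand, CACGTG was in the windows of 5 of the 22 genes that fell (HNRNPM, HNRNPH3, RBM15, RBM15B and RBM19), of none of the 7 genes with a window that rose and of 3 of the 22 that did not pass; 8.77% of all 27305 genes with a window hold it. CCAAT was in windows of 14 of the 22 that fell, 3 of the 7 that rose and 18 of the 22 that did not pass, and in those of 39.7% of all genes. Among the members these shares were 63.6% of those that fell and 81.8% of those that did not pass. TGATGNAA was in 0 of the 67 member windows and in 3.62% of all 35116 windows. TGACGTCA, searched for after the stretch before RBM18 had been read, was in windows of 3 of the 51 members, RBM18, RBM42 and RBM12, and of 2.25% of all genes. A match is a description of letters, and no binding was measured.

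The hnRNPs with RNA recognition motifs of the A/B and C type bind nascent pre-mRNA most widely. Of 10 measured, 4 fell (40%) and none rose. Of all named genes, which are not matched for level, 17.1% fell and 16.4% rose. HNRNPAB, a transcript-binding protein also found in mRNA transport granules, read 10.49, 10.49 and 10.51 in the DMSO arrays and 9.36, 9.37 and 9.23 in the NCT-503 arrays. The groups lie more than 1 unit apart while the DMSO arrays differ by hundredths. It fell by 1.18 ± 0.075 (SE, adjusted p = 7.66e-05), which made its level 2.26-fold lower and was the largest fall of the 56.

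HNRNPC, which binds uridine tracts and keeps cryptic exons out of mRNA, read 9.05, 9.09 and 9.05 in DMSO and 8.13, 8.01 and 8.06 in NCT-503. It fell by 1.00 ± 0.073 (adjusted p = 0.000123). HNRNPA2B1, a splicing repressor that also reads methylated adenosine, read 9.91, 9.92 and 9.88 in DMSO and 9.06, 9.02 and 9.14 in NCT-503, a fall of 0.83 ± 0.073 (adjusted p = 0.000228). In both genes every treated array was below every control array, and the groups separated in every called member.

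HNRNPA1, a splicing silencer, did not pass the test. It read 8.99, 9.09 and 8.96 in DMSO and 9.12, 9.20 and 8.93 in NCT-503, and the groups overlap. Its change was 0.07 with a 95% interval from -0.15 to 0.29 (adjusted p = 0.611), so a change of the size seen in HNRNPA2B1 lies outside the interval. HNRNPA1L2, a close copy of HNRNPA1, read 6.52, 5.95 and 6.15 in DMSO and 5.35, 5.57 and 5.68 in NCT-503 and fell by 0.68 ± 0.16 (adjusted p = 0.0155; 0.0507 without NCT-503 a). Probes may not separate the copies of HNRNPA1.

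The other members of this group did not pass. HNRNPA0 (-0.15), HNRNPDL (-0.11) and HNRNPA3 (-0.16) lay below 0, and HNRNPCL1 (0.06) and HNRNPCL2 (0.35), copies of HNRNPC, lay above it. HNRNPDL was lower in each treated array (10.12, 10.12 and 10.13 against 9.97, 9.97 and 10.11), and so was HNRNPA0. HNRNPCL2 was higher in each treated array. The groups separate in this way, in either direction, in 47.9% of all named genes. Without NCT-503 a, HNRNPA3 passed (adjusted p = 0.0248); that array, at 5.15, was the highest of the 6, and NCT-503 b and c read 4.34 and 4.43. HNRNPCL2 passed without DMSO c (adjusted p = 0.0482).

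Among the remaining hnRNPs, 5 of 11 fell and HNRNPLL rose. These are 45.5% and 9.09%, against 17.1% and 16.4% of all named genes, which are not matched for level. HNRNPM, a regulator of alternative exons that binds GU-rich RNA, read 10.24, 10.20 and 10.21 in DMSO and 8.98, 9.05 and 9.14 in NCT-503. It fell by 1.16 ± 0.076 (adjusted p = 8.57e-05), 2.24-fold, with no overlap between groups, as in every called member.

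HNRNPF, HNRNPH1 and HNRNPH3 bind runs of guanines through divergent recognition motifs. HNRNPH3 read 10.37, 10.22 and 10.36 in DMSO and 9.69, 9.73 and 9.82 in NCT-503 and fell by 0.57 ± 0.082 (adjusted p = 0.00183). HNRNPF fell by 0.36 ± 0.072 (adjusted p = 0.00821), and HNRNPH1 had a change of -0.16 (95% interval -0.35 to 0.04, adjusted p = 0.192). HNRNPU, a nuclear scaffold protein that binds RNA and chromatin, fell by 0.34 ± 0.069 (adjusted p = 0.00867), from 9.72 ± 0.0096 to 9.39 ± 0.036 (SD, n = 3). HNRNPR, which binds axonal transcripts in neurons, fell by 0.34 ± 0.082 (adjusted p = 0.0158), a call that was lost without DMSO b (0.0536) or NCT-503 b (0.0548).

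HNRNPLL, known for switching CD45 exons in lymphocytes, was the only HNRNP gene to rise. It read 6.48, 6.49 and 6.60 in DMSO and 7.24, 7.23 and 7.22 in NCT-503, a rise of 0.71 ± 0.073 (1.63-fold, adjusted p = 0.000461). Its paralog HNRNPL, which binds CA repeats, read 9.58, 9.49 and 9.56 in DMSO and 9.65, 9.49 and 9.50 in NCT-503. The change of HNRNPL was 0.002 (95% interval -0.19 to 0.19), and its sign turned on quantile-normalised arrays (-0.05).

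HNRNPK and HNRNPUL1, the rows with the highest mean value over the 6 arrays, did not pass. HNRNPK, which binds cytosine-rich RNA through KH domains, read 10.47, 10.54 and 10.53 in DMSO and 10.48, 10.46 and 10.48 in NCT-503. HNRNPUL1, an HNRNPU-like protein, read 10.48, 10.45 and 10.50 against 10.47, 10.50 and 10.51. Their 95% intervals ran from -0.20 to 0.12 and from -0.14 to 0.18, so the falls of HNRNPAB and HNRNPM were far outside them. HNRNPUL2 had a change of 0.17 (adjusted p = 0.185).

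**Figure D2:**
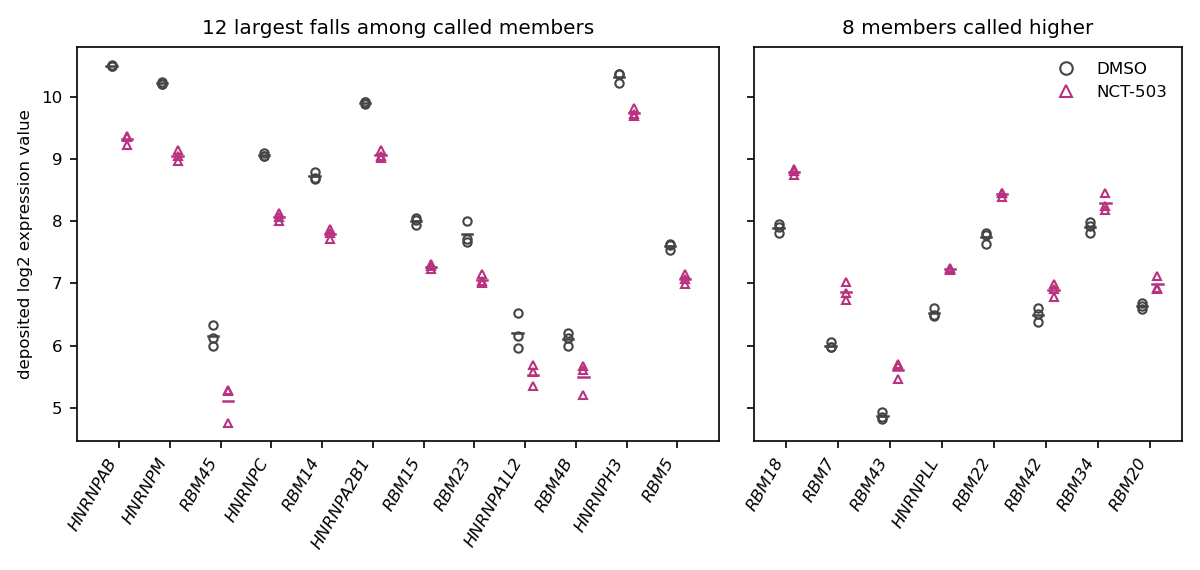
Deposited log2 expression value (y axis) in each array for the 12 members with the largest falls (left) and the 8 members that rose (right); circles are DMSO, triangles NCT-503 and bars the mean of 3 arrays. In all 20 genes every NCT-503 array lies on the same side of every DMSO array. The same holds for every called member, and the groups separate in 47.9% of all named genes.

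RBM genes whose products join the spliceosome went both ways, 4 lower and 2 higher of 11. These are 36.4% and 18.2%, against 17.1% and 16.4% of all named genes, which are not matched for level. RBM23, a paralog of RBM39, read 7.71, 7.998 and 7.67 in DMSO and 7.15, 7.001 and 7.04 in NCT-503 and fell by 0.73 ± 0.11 (adjusted p = 0.00198). RBM5, which acts on apoptosis-related exons such as those of FAS, read 7.61, 7.64 and 7.54 in DMSO and 7.08, 6.996 and 7.15 in NCT-503 and fell by 0.52 ± 0.078 (adjusted p = 0.00213). Both had non-overlapping groups, as did every called member.

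RBM6, a relative of RBM5, was the called member nearest the threshold. It read 6.58, 6.70 and 6.61 in DMSO and 6.43, 6.39 and 6.21 in NCT-503, a fall of 0.29 ± 0.089 (adjusted p = 0.0415). The call was lost when any array other than NCT-503 a was left out (0.0737 to 0.118) and under either centring of the arrays (by median or by upper quartile). RBM10, the third relative, had a change of -0.13 (adjusted p = 0.233). RBM41, a protein of the minor spliceosome, fell by 0.32 ± 0.083 (adjusted p = 0.0214), and lost its call without DMSO b or any NCT-503 array (0.0523 to 0.0627).

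RBM22, which sits at the catalytic centre of the spliceosome, rose. It read 7.78, 7.81 and 7.63 in DMSO and 8.45, 8.45 and 8.39 in NCT-503, a rise of 0.69 ± 0.080 (1.61-fold, adjusted p = 0.000725). RBM42, a protein that binds hnRNP K, read 6.60, 6.51 and 6.37 in DMSO and 6.99, 6.90 and 6.79 in NCT-503 and rose by 0.40 ± 0.094 (adjusted p = 0.0148; 0.0521 without DMSO c). The other 5 did not pass: RBM39, a U2AF-like factor and the target of indisulam, at 0.20 (adjusted p = 0.0985), RBM25 at 0.17, RBM48 at 0.20, RBM17 at 0.04 and RBM10. RBM39 and RBM25 were higher in each treated array than in any control array, and RBM10 was lower. Such separation, in either direction, was seen in 47.9% of all named genes.

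Of 9 measured splicing regulators and tissue-restricted RBM genes, RBM45 and RBM4B fell and RBM20 rose. That is 33.3% called, near the 33.5% of all named genes. RBM45, a neuronal RNA-binding protein found in inclusions of motor neuron disease, read 6.0005, 6.13 and 6.33 in DMSO and 4.76, 5.29 and 5.27 in NCT-503. Its fall of 1.05 ± 0.16 (2.07-fold, adjusted p = 0.00257) was close in size to that of HNRNPC with a wider spread, and NCT-503 a was the lowest array. RBM4B read 5.99, 6.13 and 6.21 in DMSO and 5.61, 5.68 and 5.21 in NCT-503 and fell by 0.61 ± 0.14 (adjusted p = 0.0127). RBM20, which controls titin splicing in heart, read 6.59, 6.68 and 6.64 in DMSO and 7.13, 6.93 and 6.91 in NCT-503. Its rise of 0.35 ± 0.087 (adjusted p = 0.0189) was lost without DMSO a (0.0655) or DMSO c (0.0549).

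RBM24, a muscle splicing factor, was the member just outside the threshold (adjusted p = 0.0546). It read 1.74, 1.99 and 2.01 in DMSO and 2.25, 2.25 and 2.13 in NCT-503, near the bottom of the deposited scale. RBM24 passed under either centring. RBM38 (-0.11), RBM44 (0.13), RBM46 (-0.05), RBM47 (0.10) and RBM11 (0.22) did not pass, and apart from RBM38 their mean levels were 3.35 or less.

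**Figure D3:**
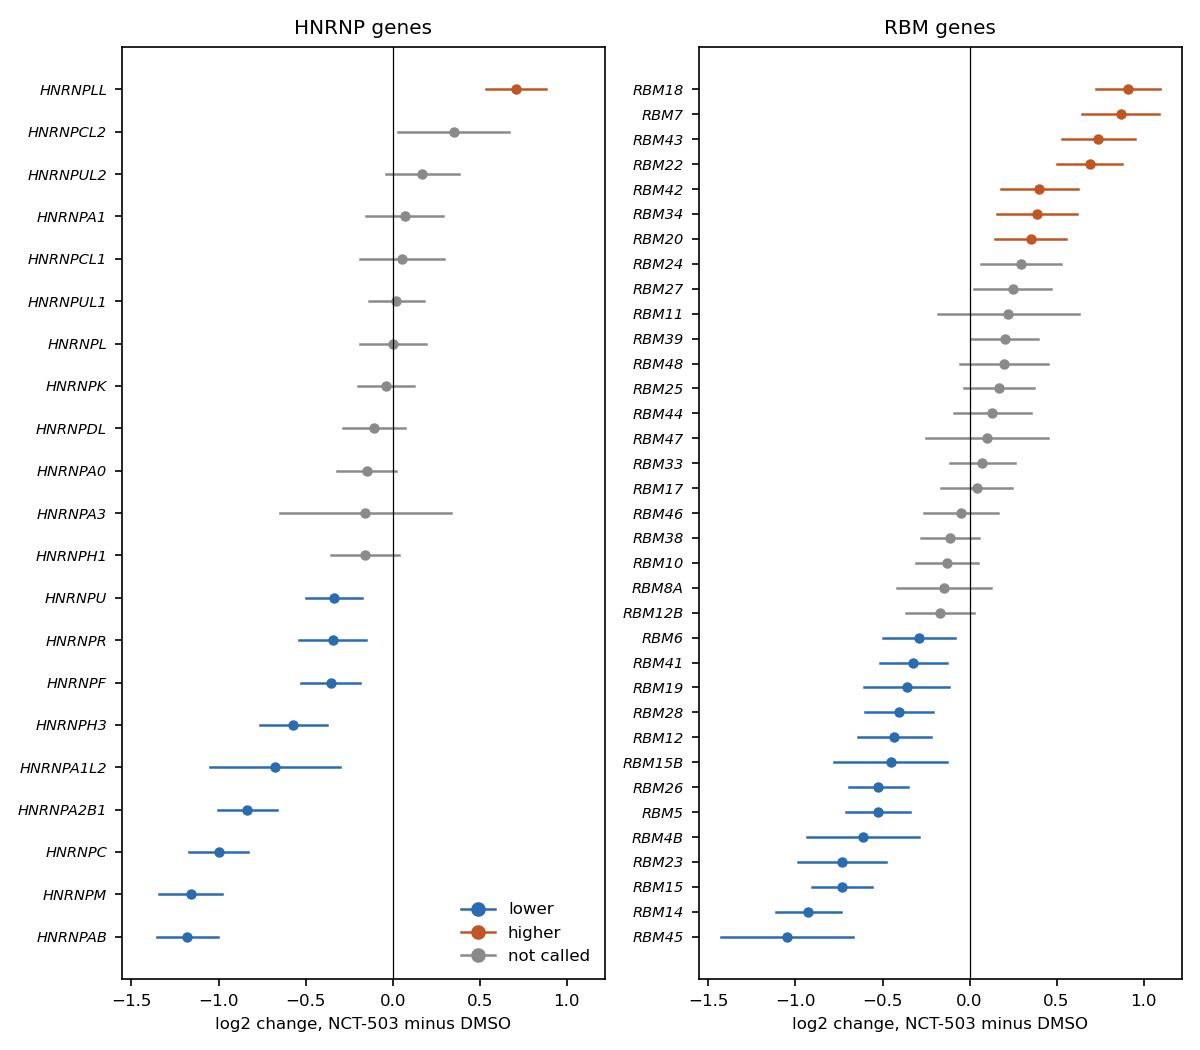
Log2 change, NCT-503 minus DMSO (x axis), for the 21 HNRNP genes (left) and the 35 RBM genes (right), sorted by change; points are the change, lines its 95% interval from limma, and colours the call. HNRNPLL is the only HNRNP gene called higher, with 9 called lower, and 7 RBM genes are called higher and 13 lower.

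Messenger RNA receives N6-methyladenosine from a METTL3-METTL14 writer that RBM15 and RBM15B bring to its targets. RBM15 read 7.94, 8.05 and 8.02 in DMSO and 7.27, 7.31 and 7.23 in NCT-503 and fell by 0.73 ± 0.073 (adjusted p = 0.000402). RBM15B fell by 0.45 ± 0.14 (adjusted p = 0.0407), from 5.65, 6.02 and 5.52 to 5.40, 5.20 and 5.24. That call was lost when any array other than DMSO c was left out (0.0565 to 0.107) and under either centring.

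Of 5 measured other writer genes, METTL3, the catalytic subunit, fell and VIRMA, the scaffold, rose. METTL3 read 7.18, 7.21 and 7.22 in DMSO and 6.26, 6.26 and 6.25 in NCT-503, a fall of 0.94 ± 0.067 (adjusted p = 0.000112). VIRMA rose by 0.25 ± 0.070 (adjusted p = 0.0282), a call lost without any 1 array (0.0551 to 0.0868). METTL14 (-0.13), WTAP (0.03) and ZC3H13 (-0.18) did not pass. Of the 5 writer genes, 40% were called, against 33.5% of all named genes.

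Nuclear RNA decay is served by adaptors of the exosome. RBM7, the RNA-binding subunit of the nuclear exosome targeting complex, read 5.98, 6.05 and 5.97 in DMSO and 6.73, 6.85 and 7.02 in NCT-503 and rose by 0.87 ± 0.094 (1.83-fold, adjusted p = 0.000569). RBM26, which acts with the adaptor for polyadenylated RNA, read 8.86, 8.76 and 8.79 in DMSO and 8.24, 8.29 and 8.31 in NCT-503 and fell by 0.52 ± 0.072 (adjusted p = 0.00154). Its paralog RBM27 had a change of 0.25 (95% interval 0.03 to 0.47, adjusted p = 0.0823), and passed with arrays centred on the 75th percentile. Of the 3 other adaptor genes measured, the helicase MTREX (0.07) and ZC3H18 (-0.17) did not pass, and SRRT, which links the cap to decay, fell by 0.62 ± 0.10 (adjusted p = 0.00352).

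RBM33, an RNA export factor, had a change of 0.07. RBM8A, a core protein of the exon junction complex, had a change of -0.15 (95% interval -0.42 to 0.12). Of the 3 other junction genes measured, the helicase EIF4A3 fell by 0.56 ± 0.10 (adjusted p = 0.00468), CASC3 rose by 0.34 ± 0.072 (adjusted p = 0.0099), and MAGOHB (-0.26) did not pass.

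All 3 nucleolar RBM genes were called, 2 lower and 1 higher, against 33.5% called of all named genes. RBM28 fell by 0.40 ± 0.083 (adjusted p = 0.0088) and RBM19, a factor of ribosomal RNA processing, by 0.36 ± 0.10 (adjusted p = 0.0336), while RBM34 read 7.81, 7.99 and 7.92 in DMSO and 8.25, 8.18 and 8.45 in NCT-503 and rose by 0.39 ± 0.097 (adjusted p = 0.0198). The call of RBM19 was lost when any array other than NCT-503 a was left out (0.0689 to 0.0982), and that of RBM34 without DMSO a (0.0689) or DMSO c (0.0532).

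Of the 5 other RBM genes, RBM18 and RBM43 rose and RBM14 and RBM12 fell. That is 80% called, against 33.5% of all named genes, which are not matched for level. RBM18, a little-studied protein with a single recognition motif, read 7.96, 7.91 and 7.80 in DMSO and 8.74, 8.85 and 8.81 in NCT-503, a rise of 0.91 ± 0.079 (1.88-fold, adjusted p = 0.000225), the largest of the 56. RBM43 read 4.82, 4.94 and 4.86 in DMSO and 5.70, 5.68 and 5.47 in NCT-503 and rose by 0.74 ± 0.090 (adjusted p = 0.000914). Treated and control arrays were apart in both, as in every called member.

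RBM14, a coactivator and paraspeckle protein, read 8.80, 8.70 and 8.68 in DMSO and 7.87, 7.81 and 7.72 in NCT-503. It fell by 0.93 ± 0.079 (1.90-fold, adjusted p = 0.000214). RBM12 fell by 0.43 ± 0.090 (adjusted p = 0.00938), and its relative RBM12B had a change of -0.17 (adjusted p = 0.156).

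Closely related genes were set side by side in 15 pairs. In none were both called in opposite directions, in 3 both fell (HNRNPF and HNRNPH3, RBM5 and RBM6, RBM15 and RBM15B), in 10 a single gene was called and in 2 neither. The difference between the genes of a pair was then taken within each array and compared between groups. In 12 of the 15 pairs these differences did not overlap between groups. The same held for 72.9% of all 1540 pairs of members and 48.5% of all pairs of named genes, so the count for the related pairs is near that for members paired regardless of relation. With 3 arrays against 3, the exact two-sided permutation test cannot give less than p = 0.1. Adjusted over the 15 pairs, its value was 0.125 in the 12 pairs without overlap and 0.23 to 0.4 in those that overlapped.

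The widest gap was that of HNRNPAB and HNRNPDL, whose changes differed by -1.07, and the within-array difference was 0.37 to 0.38 in DMSO and -0.88 to -0.60 in NCT-503. RBM23 and RBM39 differed by -0.94, RBM26 and RBM27 by -0.77, HNRNPA1 and HNRNPA1L2 by 0.74, and HNRNPL and HNRNPLL by -0.71. HNRNPU and HNRNPUL2 differed by -0.51. The pairs that overlapped were RBM5 and RBM6 (exact p = 0.3), RBM15 and RBM15B (exact p = 0.2), and RBM46 and RBM47 (exact p = 0.4).

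**Figure D4:**
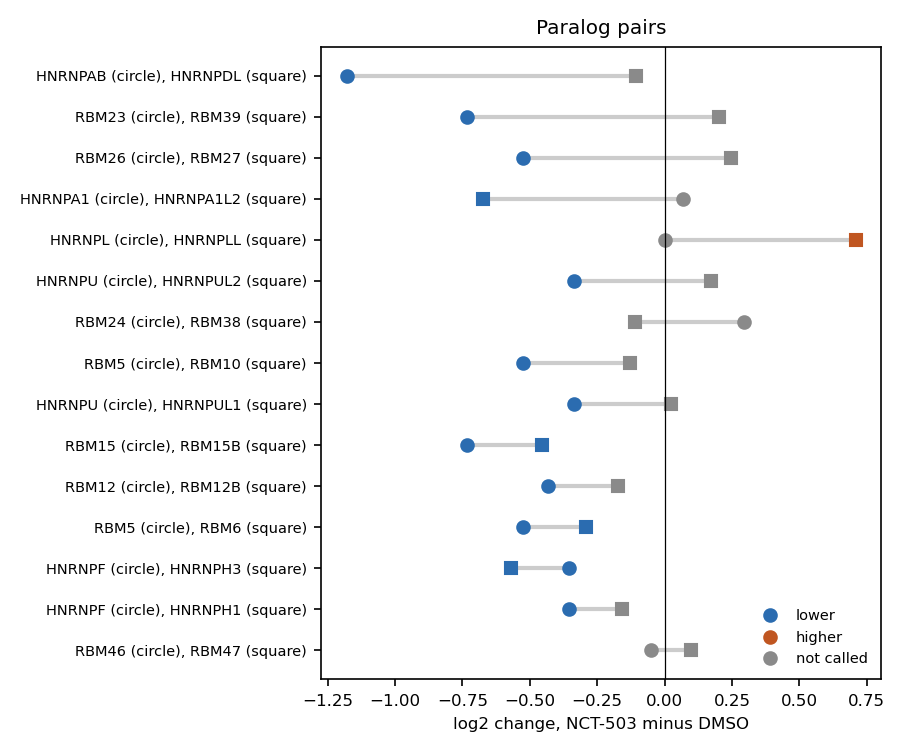
Log2 change, NCT-503 minus DMSO (x axis), of the 2 genes of each of 15 paralog pairs, circle for the gene named first and square for the other, coloured by call. The upper pairs lie furthest apart, led by HNRNPAB at -1.18 and HNRNPDL at -0.11.

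Several hnRNP proteins carry other symbols. Of 7 of these measured, TARDBP, the TDP-43 protein of motor neuron disease, read 7.45, 7.36 and 7.38 in DMSO and 6.26, 6.35 and 6.26 in NCT-503 and fell by 1.11 ± 0.074 (adjusted p = 9.06e-05). PCBP1, a KH-domain protein known as hnRNP E1, rose by 0.53 ± 0.069 (adjusted p = 0.00124), and PTBP3 rose by 0.35 ± 0.077 (adjusted p = 0.0122). PTBP1, the polypyrimidine tract protein, read 11.53 in each DMSO array and 11.51, 11.52 and 11.53 in NCT-503, and its change was -0.01 (95% interval -0.17 to 0.15). PTBP2 (-0.29), PCBP2 (0.16) and CIRBP (0.16) did not pass. Of the 7 genes, 42.9% were called, against 33.5% of all named genes.

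Several RBM proteins act on the U2 particle, which recognises the branch point. Of 18 listed U2 and U2AF genes, 9 had a row, 2 fell and 1 rose. U2SURP fell by 0.60 ± 0.078 (adjusted p = 0.00115), and SNRPB2 rose by 0.34 ± 0.071 (adjusted p = 0.00913). U2AF1 fell by 0.25 ± 0.074 (adjusted p = 0.0363), a call lost without any 1 array (0.0593 to 0.104) and under either centring. The shares called among these 9 genes were 22.2% lower and 11.1% higher, against 17.1% and 16.4% of all named genes. In either direction they were 33.3% against 33.5%, so the list lay at the background share.

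For 12 members, RefSeq places the start of another gene on the opposite strand within 1000 bases upstream, and in 6 of them that neighbour had a row. The stretches between the starts are shown for the 3 pairs in which both genes were called, in the direction of the RBM gene and with capitals as above.
RBM18 and MRRF, chr9:122264841-122264881, - strand: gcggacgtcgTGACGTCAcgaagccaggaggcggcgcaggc
RBM26 and RBM26-AS1, chr13:79406256-79406308, - strand: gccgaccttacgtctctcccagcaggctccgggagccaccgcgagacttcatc
RBM15 and RBM15-AS1, chr1:110339172-110339376, + strand: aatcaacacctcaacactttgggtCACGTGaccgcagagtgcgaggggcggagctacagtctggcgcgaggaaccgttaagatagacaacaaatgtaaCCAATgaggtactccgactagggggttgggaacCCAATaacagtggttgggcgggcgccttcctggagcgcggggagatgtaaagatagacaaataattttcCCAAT
The first holds the palindrome TGACGTCA in capitals, the second none of the motifs, and the third an E-box and CCAAT boxes.

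RBM18 and MRRF, the mitochondrial ribosome recycling factor, start 41 bases apart. MRRF read 6.51, 6.61 and 6.68 in DMSO and 7.27, 7.34 and 7.27 in NCT-503 and rose by 0.69 ± 0.079 (adjusted p = 0.000681), so both genes of the pair rose. RBM26-AS1, whose start lies 53 bases from that of RBM26, read 5.80, 5.84 and 5.74 in DMSO and 4.45, 4.57 and 4.08 in NCT-503. It fell by 1.43 ± 0.13 (adjusted p = 0.000277), while a dimmer row of the same gene changed by -0.39 (adjusted p = 0.134 over all deposited rows). RBM15-AS1, 205 bases from RBM15, fell by 0.89 ± 0.19 (adjusted p = 0.0105), from 3.69, 4.11 and 3.29 to 2.88, 2.82 and 2.72. Its row was dim, with a mean level of 3.25 against a median of 5 over all named genes. The call of RBM15-AS1 was lost without limma's moderation (adjusted p = 0.0681).

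The other 3 pairs had no neighbour that passed. HNRNPA2B1 fell while CBX3, a heterochromatin protein gene 696 bases away, had a change of -0.01 (adjusted p = 0.951). ENOPH1 beside HNRNPDL (0.01) and TTC9C beside HNRNPUL2 (0.16) did not pass, and neither did their HNRNP partners. Whether the probes separate strands of overlapping transcripts was not tested.

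**Figure D5:**
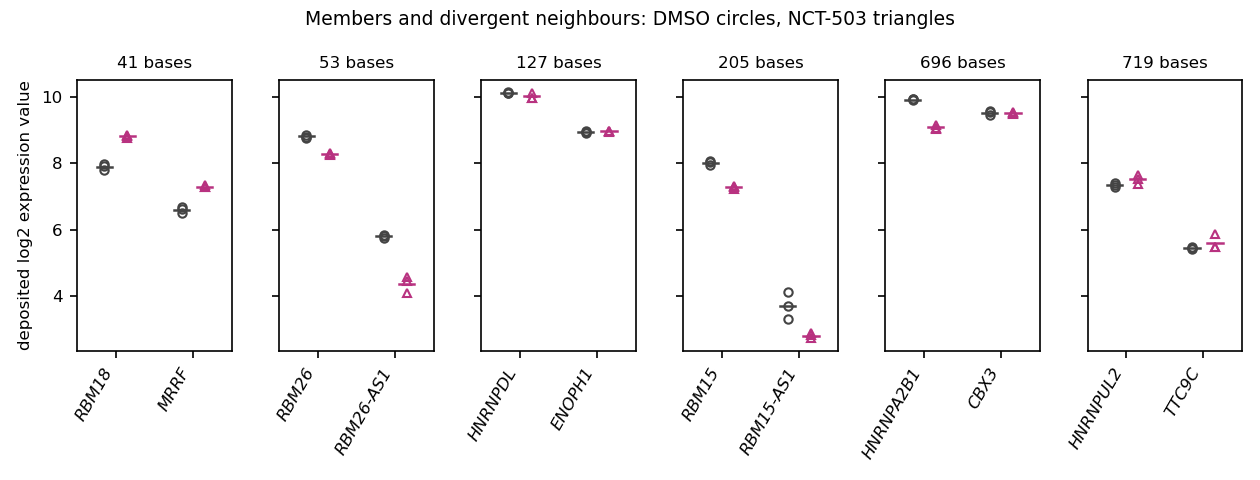
Deposited log2 expression value (y axis) in each array for 6 members and their divergent neighbours; circles are DMSO, triangles NCT-503, bars the mean of 3 arrays, and panel titles the number of bases between the starts. RBM18 and MRRF are both higher in NCT-503, RBM26 and RBM15 are lower together with their antisense genes, and CBX3 does not follow HNRNPA2B1.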

How the data were processed

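The authors deposited a table of log2 expression values (31135 rows, 6 arrays), taken as log2 from their range of 0.578 to 13.6. Partek was used, per the submitters' processing notes; neither its version nor the background correction and normalization is given in the sources used here. Scanner files were not used here, so no row could be set against its background. The platform annotation named 15098 rows, all matched by Entrez identifier to GRCh38.p14 symbols; of several rows of a gene the one with the highest mean was used, which left 14779 genes. limma 3.58.1 in R 4.3.3 (lmFit, eBayes without trend, both groups, no covariates) was used, two-sided, with Benjamini-Hochberg adjustment over all 14779 genes. The fit was also run on simulated data, and the outcome is not given or used as support here. The members, lists and paralog pairs were chosen with earlier results of these data known. Per-array values are given for the 12 largest called changes in each direction, the 3 rows with the highest mean and the members nearest the threshold; others are summarised or were added after their values were seen. Levels of different rows are not comparable as abundances. Alternatives were other moderation, array weights, a replicate block, 3 scalings, filters that kept rows brighter than the 25th or 50th percentile, the mean of a gene's rows, every row, an adjusted p under 0.01 and leaving out each array.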

Additional observations from a re-analysis of the deposited data

How the results depend on the processing

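Of the 30 called members, 20 kept their call and direction under each of the 18 alternatives that measured them, an adjusted p under 0.01 included, and none of the 30 changed sign. Counts of members called lower ran from 15 to 23 and of those called higher from 5 to 11. At an adjusted p under 0.01, 5 members were higher and 15 lower, and 1226 of all named genes were higher and 1682 lower; with every deposited row tested, 3621 rows were called higher and 4100 lower, 11.6% and 13.2% of all rows. The median change of the members was -0.078 with arrays centred on the median and -0.052 on the 75th percentile. With the replicate letter as a replicate block, 9 members were higher and 19 lower; HNRNPCL2 was gained and RBM15B, RBM19 and RBM6 were lost. Deviations of arrays with the same letter correlated by 0.0036, 0.0026 and 0.037, and the labels do not say that letters pair samples. Without moderation, HNRNPA1L2, RBM15B, RBM19, RBM34, RBM4B and RBM6 were lost, and with trend and robust settings HNRNPA0, RBM25, RBM27 and RBM39 were gained.

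Signs turned only among genes that did not pass. On quantile-normalised arrays these were HNRNPCL1 (-0.013), HNRNPL (-0.051), HNRNPUL1 (-0.10), MTREX (-0.035) and ENOPH1 (-0.044). With arrays centred on the median they were HNRNPK (0.0034), PTBP1 (0.031) and CBX3 (0.035), and on the 75th percentile HNRNPK (0.030), RBM46 (0.019), PTBP1 (0.057) and CBX3 (0.062). HNRNPL was -0.0098 with array weights. With arrays left out in turn, the change ranged from -0.020 to 0.12 for HNRNPCL1, -0.051 to 0.032 for HNRNPL, -0.027 to 0.084 for RBM17, -0.091 to 0.025 for RBM46, -0.063 to 0.20 for RBM47, -0.036 to 0.073 for WTAP, -0.046 to 0.022 for CBX3 and -0.0037 to 0.026 for ENOPH1. The cause was not tested. Signal over background could not be assessed for dim rows.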

Other observations

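Rows that carry an HNRNP or RBM symbol but are no members were pseudogenes, antisense transcripts and a read-through transcript. The row of HNRNPA1P10, a transcribed pseudogene of HNRNPA1, read 12.26, 12.24 and 12.20 in DMSO and 12.10, 12.17 and 12.22 in NCT-503. Its change was -0.07 (limma, adjusted p = 0.495), like the 0.07 of HNRNPA1 itself in that neither passed. Whether the probes of this row also read HNRNPA1 was not tested, so its values may not be the pseudogene's own. RPL36A-HNRNPH2, a read-through transcript that ends in HNRNPH2, read 6.75, 6.76 and 6.81 in DMSO and 6.33, 6.49 and 6.36 in NCT-503 and fell by 0.38 (limma, adjusted p = 0.00816). RBM5-AS1 had a change of 0.41 (limma, adjusted p = 0.101) while RBM5 fell, and RBM12B-AS1 had a change of 0.21 (limma, adjusted p = 0.106). The pseudogene rows HNRNPA3P1, HNRNPA1P33 and HNRNPKP3 had changes of 0.04, 0.15 and -0.05 and did not pass.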
